A study of Mus musculus with 4 samples.

Results

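The cells described here are BCL2-transgenic CD45.2+ cells of mouse spleen, sorted as germinal centre (GC) B cells, that were not plasma cells. They were compared between recipients of DOCK8-deficient and of wild-type (WT) donor cells. No germinal centre gene was required of them, and the paper's clusters of these sorts also included early, activated or memory-like B cells and T cells. Members were chosen by rule: between 100 and 5500 genes detected, under 10% mitochondrial counts, *Jchain* under 50 CP10K (UMI counts scaled to equal totals per cell), and a highest hashtag whose count was 3 or more times that of the runner-up. Of 24241 barcodes in the CD45.2+ library, 8831 passed the cell filter and were assigned to a recipient, and 6953 of these were kept after 1878 were left out by *Jchain*. They are 6953 of the 29473 barcodes of both mRNA libraries. The WT recipients 1 to 3 contributed 1957, 2652 and 1558 cells, and the DOCK8-deficient recipients 1 to 3 contributed 221, 143 and 422. At least 1 UMI of *Ighd*, the gene of the IgD heavy chain, was found in 4956 cells, called *Ighd*-positive below, and in 1997 cells there was none.

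All donor B cells carried the MD4 receptor transgene, which recognises hen egg lysozyme (HEL), and were bred on a C57BL/6 background. The CD45.2+ donor cells also carried BCL2.Tg, a transgene that keeps B cells alive, and were *Dock8* wt/wt in one group and *Dock8* cpm/cpm in the other. The cpm allele is a chemically induced mutation described as null for the protein. CD45.1+ *Dock8* wt/wt MD4 cells without BCL2.Tg were transferred into the same recipients in both groups and served as bystanders. The recipients were CD45.1+ WT mice immunized with HEL on sheep red blood cells, and their spleens were taken on day 8. Since the recipients are CD45.1+ themselves, the CD45.1+ sort can also hold recipient cells. Each recipient is 1 mouse. Whether donor cells came from 1 donor or a pool is not stated, so p-values measure the spread between recipients. Both groups shared every library, and cells were sorted for HEL binding and CD95.

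DOCK8 is an exchange factor that activates the small GTPase CDC42 and so links surface receptors to the actin cytoskeleton. In the germinal centre, B cells divide and mutate their receptors in the dark zone and compete for antigen and T cell help in the light zone. Loss of DOCK8 in people and mice leads to poor long-term antibody responses. BCL2 blocks mitochondrial apoptosis and so prolongs the survival of B cells that would otherwise be lost.

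Group membership rests on 6 hashtag oligos, which are shown because every comparison depends on telling them apart. Each is 15 bases long and is printed 5′ to 3′ as deposited, in lower case:
B0301, WT recipient 1: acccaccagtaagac
B0302, WT recipient 2: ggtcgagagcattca
B0303, WT recipient 3: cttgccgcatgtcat
B0304, DOCK8-deficient recipient 1: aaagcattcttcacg
B0305, DOCK8-deficient recipient 2: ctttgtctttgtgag
B0306, DOCK8-deficient recipient 3: tatgctgccacggta
Compared base by base without gaps, the nearest pair differed at 8 positions. Among kept cells the median count of the highest hashtag lay between 1493 and 2395.5 per recipient, and that of the second between 86 and 174.

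Before the groups were compared, cell type markers and *Dock8* were read in each recipient. Markers at like levels in both groups cannot tell which group a hashtag belongs to. B cell markers summed to between 16260 and 19935 CPM (UMI counts scaled to an equal total per recipient) in the 6 recipients, and the groups overlapped. Germinal centre markers summed to 572, 703 and 682 CPM in the WT recipients and to 732, 631 and 539 CPM in the DOCK8-deficient ones, also with overlap. T cell markers lay between 15.9 and 46.8 CPM. NK cell markers were at 33.7 CPM in DOCK8-deficient recipient 3 and at or under 4.89 CPM in the other recipients. *Dock8* mRNA stood at 124, 125 and 119 CPM in WT and at 104.6, 108 and 107 CPM in DOCK8-deficient recipients, a log2 fold change of -0.20 ± 0.08 SE with an edgeR adjusted p = 0.522. The effect of the cpm allele on *Dock8* mRNA is not stated, so this level is no check of the label.

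Sex-linked genes separated the groups and also divided the cells within one of them. *Xist*, the long RNA that coats the inactive X chromosome of female cells, gave 1367, 1526 and 1288 CPM in recipients with the WT label but 362, 346 and 300 CPM under the DOCK8-deficient label. The Y-linked genes *Ddx3y*, *Eif2s3y*, *Kdm5d* and *Uty* together gave 9.02, 15.6 and 8.54 CPM in the first group and 149, 138 and 170 CPM in the second. Donor sex therefore differed with genotype, in the direction opposite to the one that the study's notes give for the donors, and the groups are named here as the hashtag table labels them. Whether the group labels were exchanged was not tested, and an exchange would turn every direction given below. Set beside this, the recipients labelled DOCK8-deficient held 786 kept cells against 6167, and the share of *Jchain*-high cells among assigned cells was 8.79% against 22.4%. Genotype and donor sex cannot be told apart in these data, and for that reason only autosomal genes were tested. Among the bystander CD45.1+ cells, Y-linked UMIs were found in 0% to 0.408% of cells per recipient.

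*Xist* at or over 4 CP10K was seen in 90.4%, 92.8% and 90.1% of WT cells, but also in 19.0%, 27.3% and 17.1% of DOCK8-deficient cells, 153 cells in all. The 108 of these without a Y-linked UMI had *Bcl2* at 35.1 CPM, and 45 with one had 177 CPM. For comparison, *Bcl2* lay between 25.0 and 37.4 CPM in the bystander cells of the 6 recipients, which lack the transgene. DOCK8-deficient cells below the cut had 215, 206 and 222 CPM, and WT cells had 181, 193 and 131 CPM. In *Bcl2* level, the Xist-high cells without a Y-linked UMI thus lay within the range of bystander cells and below both the other DOCK8-deficient cells and the WT cells. Where these 153 cells came from was not tested. Cells of the same kind cannot be recognised by *Xist* in the WT recipients, where nearly all cells express it. Y-linked UMIs were found in 5.88%, 8.14% and 6.16% of WT cells, and no selection left out WT cells for them. Leaving out cells for high *Xist* in DOCK8-deficient recipients alone is therefore a step on 1 side only.

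**Figure D1:**
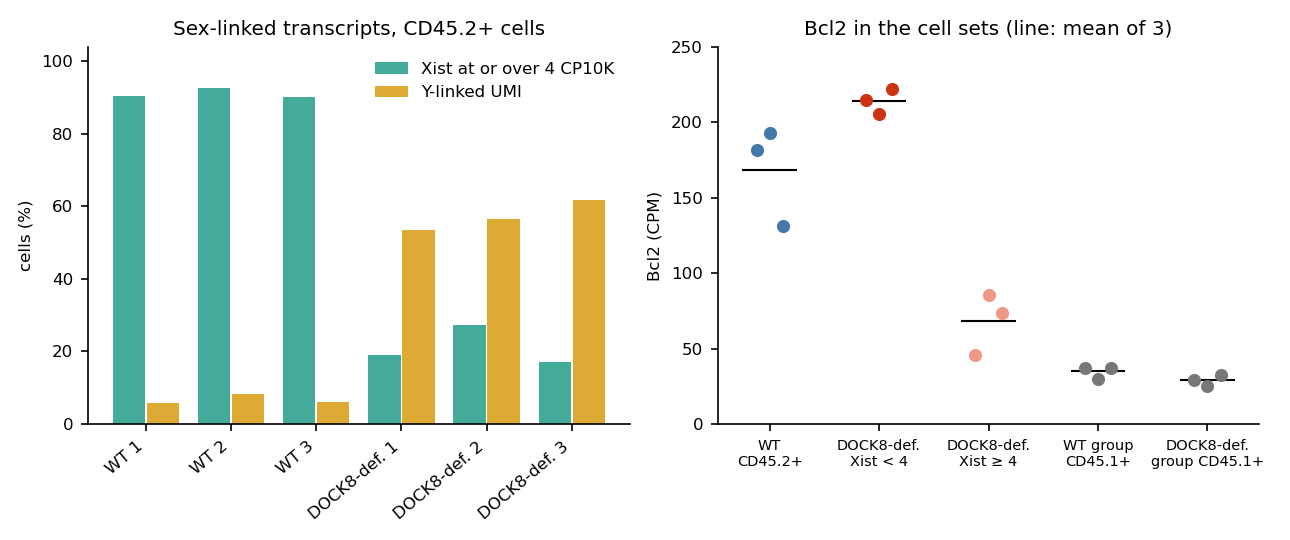
Left, percentage of kept CD45.2+ cells of each recipient with *Xist* at or over 4 CP10K and with a Y-linked UMI. Right, *Bcl2* in CPM of all genes for each recipient (points) and the mean of 3 (lines). Xist-high cells of DOCK8-deficient recipients, at 45.9, 85.6 and 73.3 CPM, lie between bystander CD45.1+ cells and the other CD45.2+ cells.

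The groups were therefore compared over all cells of the rule and again with the 153 Xist-high cells left out, an alternative that was chosen after the data had been seen. Values below belong to the selection named with them. The cut is not neutral toward the cell cycle. At a depth thinned to 2000 UMIs, at least 3 UMIs of DNA replication genes were found in 66.7% of the Xist-high cells without a Y-linked UMI and in 22.7% of the DOCK8-deficient cells below the cut. Within WT recipients, the same share was 30.8% above the *Xist* cut and 23.0% below it. An *Ighd* UMI, at the same depth, was found in 31.7% of Xist-high DOCK8-deficient cells and in 59.0% of those below the cut. Within WT recipients it was found in 42.9% of cells above the cut and in 46.9% below it. How much of a difference in proliferation, naive or germinal centre genes comes with the cut cannot be told apart from genotype after this step. A version with the cut in both groups stands beside those results. That version keeps 533 of 6167 WT cells. More genes were called in it than with the cut in DOCK8-deficient recipients alone, and the total is given at the end. Counts of called list members in it are to be read beside that larger total.

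Over all cells of the rule, few genes separated the groups, and of the members of the 21 gene lists described below *Cox6a2* alone was among them. Counts of autosomal genes were summed per recipient and tested with edgeR's quasi-likelihood test. In such sums, fewer cells of a type and less RNA per cell cannot be told apart. Of 10475 genes tested, 7 passed a Benjamini-Hochberg adjusted p of 0.05 (0.0668%), 4 higher (0.0382%) and 3 lower (0.0286%) in DOCK8-deficient cells. At an unadjusted p under 0.05, 3.79% of genes were higher and 4.44% lower, 862 in all. The 3 recipients of one group lay entirely above or below those of the other for 7% of genes that were higher in DOCK8-deficient cells and for 8.22% that were lower. DESeq2 called 18 genes, 9 in each direction. The count depended on single recipients: it was 4, 14 and 50 without WT recipient 1, 2 or 3, and 4, 4 and 2 without DOCK8-deficient recipient 1, 2 or 3.

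The genes described that fell were expressed at moderate levels. *Mgst2*, a microsomal glutathione transferase, stood at 46.4, 38.7 and 39.5 CPM in WT and at 11.9, 17.0 and 19.4 CPM in DOCK8-deficient recipients, a log2 fold change of -1.31 ± 0.16 SE with an edgeR adjusted p = 0.00213. *Pcp4*, a small calmodulin-binding protein, was at 32.3, 21.4 and 36.2 CPM against 12.6, 8.97 and 7.14 CPM (log2 fold change -1.71 ± 0.28 SE, edgeR adjusted p = 0.0404). In both, every DOCK8-deficient recipient lay below every WT recipient. In bystander cells *Mgst2* had a log2 fold change of 0.12 and *Pcp4* of -1.19, and the groups overlapped for both. For *Pcp4* the unadjusted p there was 0.0039, with an adjusted p of 0.999 (edgeR), so this gene leaned the same way in cells that do not differ in *Dock8*.

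Of the 4 genes that rose, *Gm43305* was the most abundant. This processed transcript on chromosome 14 (chr14:54292443-54297456, GRCm38) stood at 78.0, 83.2 and 91.9 CPM in WT and at 216, 238 and 202 CPM in DOCK8-deficient recipients (log2 fold change 1.36 ± 0.09 SE, edgeR adjusted p = 8.45e-07). Its level also varied among bystander cells, where recipients 1 and 2 of either group lay between 272 and 318 CPM and recipient 3 of either group at 36.7 and 53.7 CPM. *E330020D12Rik*, a second processed transcript, was nearly constant within groups, at 24.7, 24.5 and 26.7 CPM against 39.7, 39.5 and 40.1 CPM (log2 fold change 0.66 ± 0.11 SE, edgeR adjusted p = 0.0441). In bystander cells its log2 fold change was 0.02.

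The other 2 were low in WT cells. *Cox6a2*, a subunit of cytochrome c oxidase best known from muscle, was at 1.30, 2.66 and 1.51 CPM against 9.93, 6.28 and 7.48 CPM (log2 fold change 2.07 ± 0.36 SE, edgeR adjusted p = 0.0441). *AA467197* was at 2.31, 2.94 and 2.51 CPM in WT and at 6.62, 15.3 and 50.6 CPM in DOCK8-deficient recipients (log2 fold change 3.45 ± 0.43 SE, edgeR adjusted p = 0.00213). The groups did not overlap for either gene. For *AA467197* the highest value was in DOCK8-deficient recipient 3, which also had the NK cell markers, and their part in this result was not tested.

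**Figure D2:**
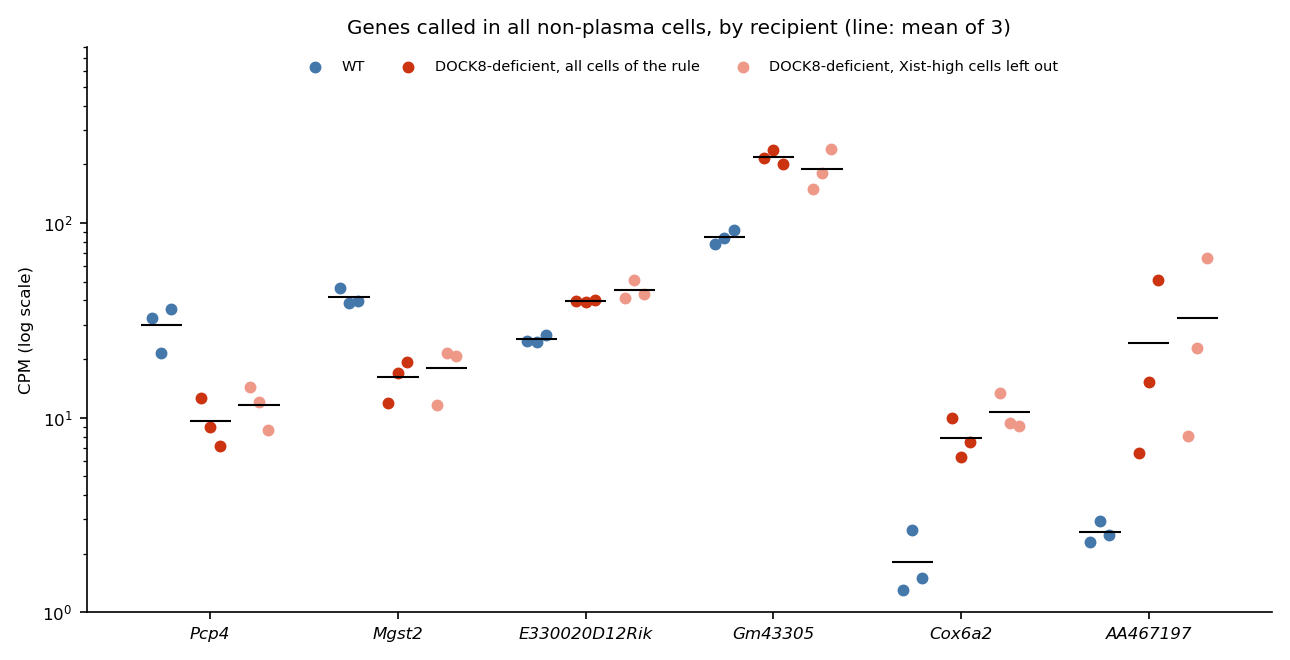
CPM on a log scale of 6 of the 7 genes called over all cells of the rule, for each recipient (points) with the mean of 3 (lines), in WT cells and in DOCK8-deficient cells with and without Xist-high cells. The groups do not overlap for any of the 6 shown, and *AA467197* spans 6.62 to 50.6 CPM among DOCK8-deficient recipients.

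With the Xist-high cells left out of the DOCK8-deficient recipients, 68 of 10355 genes were called (0.657%), 37 higher (0.357%) and 31 lower (0.299%). At an unadjusted p under 0.05, 6.2% of genes were higher and 6.88% lower, 1354 in all, and the groups did not overlap for 9.58% that were higher and 10.6% that were lower. DESeq2 called 59, of which 37 were higher. All 7 genes called over all cells of the rule were among the 68. The count was 116 without WT recipient 3, 12 without DOCK8-deficient recipient 1, 28 without recipient 2 and 1 without recipient 3, which holds most of the remaining cells. Of the 68, 53 were also called when only Xist-high cells without a Y-linked UMI were left out, 35 when DOCK8-deficient cells were limited to those with a Y-linked UMI, and 20 when the *Xist* cut was applied in both groups, where 59 of 65 tested kept their sign. *Mgst2*, *E330020D12Rik* and *Gm43305* were called under all 5 selections of cells. Another 12 were called under 4 of the 5: *Mrpl52*, *Cenpm*, *Filip1l*, *Fcer2a*, *9930111J21Rik2*, *Trib2*, *Mir155hg*, *Zfp318*, *Pdcd1lg2*, *Abca1*, *Cox6a2* and *AA467197*. The selection that missed them was that of all cells of the rule, with 2 exceptions. *Cox6a2* missed among cells with a Y-linked UMI, and *AA467197* was not tested with the cut in both groups. The selections other than the rule all use sex-linked transcripts of the same recipients, so they are not separate support.

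**Figure D3:**
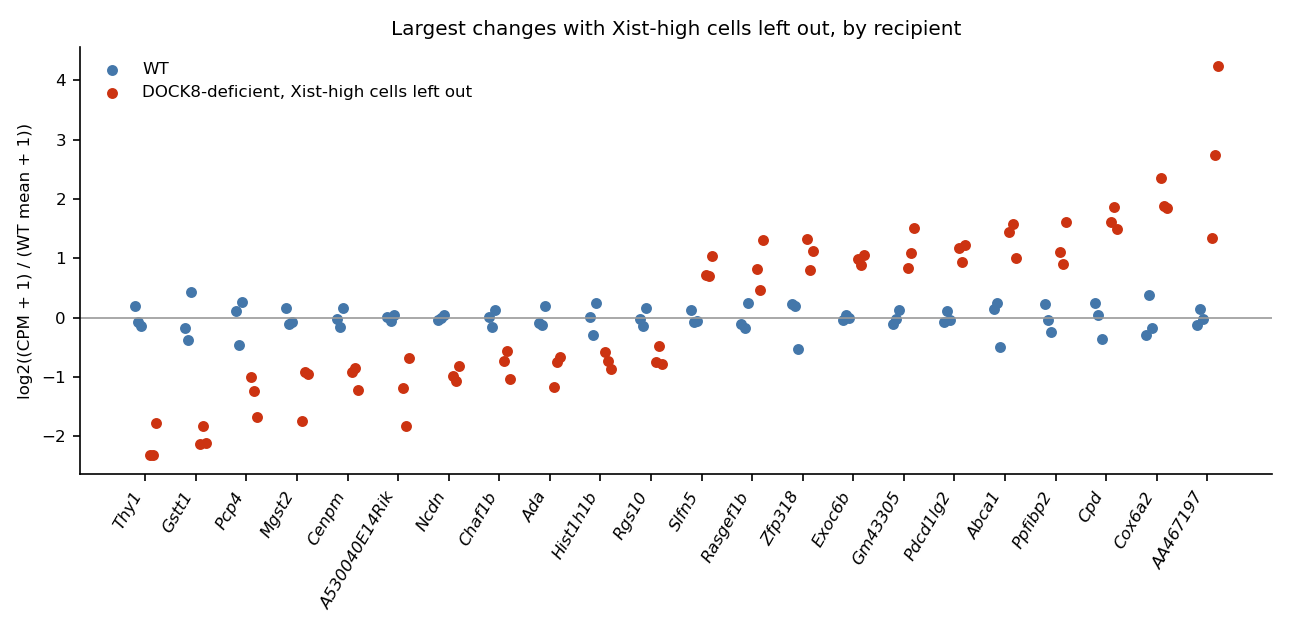
For 11 of the 12 genes with the largest rise and 11 of the 12 with the largest fall after Xist-high cells were left out, log2 of (CPM + 1) over the WT mean plus 1, by recipient. Genes were picked among called genes whose groups did not overlap, so each DOCK8-deficient recipient (red) lies outside the WT range (blue) by choice. The spread is widest for *AA467197*, from 8.06 to 66.2 CPM.

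Genes of the naive and recirculating B cell state leaned upward after this step, which left out cells poorer in *Ighd* than those kept. Of 20 listed genes, all tested, 2 were called higher and 0 lower, and the median log2 fold change was 0.30 against 0.00 over all genes, with 18 of 20 positive. *Zfp318*, a nuclear protein needed for IgD expression, stood at 74.7, 72.9 and 43.7 CPM in WT and at 161, 111 and 139 CPM in DOCK8-deficient recipients (log2 fold change 1.12 ± 0.17 SE, edgeR adjusted p = 0.00529). *Fcer2a*, the low-affinity IgE receptor CD23 of follicular B cells, was at 253, 287 and 206 CPM against 499, 310 and 394 CPM (log2 fold change 0.70 ± 0.13 SE, edgeR adjusted p = 0.0251). Both genes separated the groups completely. They were not called over all cells of the rule, at 0.79 (edgeR adjusted p = 0.141) and 0.45 (edgeR adjusted p = 0.322). For *Ighd* the log2 fold change was 0.66 ± 0.16 SE with an edgeR adjusted p = 0.0637, at 485, 455 and 284.5 CPM against 762, 497 and 664 CPM, and was not called. Over all cells of the rule the median of the list was 0.06 with 0 called and 4 higher at an unadjusted p under 0.05, and with the *Xist* cut in both groups it was 0.11, with 2 called higher and 2 lower.

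Activation genes of the light zone gave a small number of calls, and their median moved with the selection of cells. Of 26 light zone genes, 2 were called higher without Xist-high cells and the median was 0.08. It was -0.01 over all cells of the rule with 0 called and 4 at an unadjusted p under 0.05, and with the *Xist* cut in both groups 0.20 with 2 called and 21 of 24 positive. In *Ighd*-zero cells of the rule it was -0.24 with 21 of 24 negative and 0 called. *Cd69*, an early activation antigen that holds lymphocytes in tissue, was at 20.9, 25.9 and 22.3 CPM against 55.5, 32.2 and 38.5 CPM (log2 fold change 0.87 ± 0.16 SE, edgeR adjusted p = 0.0251). *Mir155hg*, the host transcript of miR-155, was at 21.5, 23.6 and 30.9 CPM against 40.3, 57.6 and 43.5 CPM (log2 fold change 0.86 ± 0.17 SE, edgeR adjusted p = 0.0281). In both, the lowest DOCK8-deficient recipient lay above the highest WT recipient. Neither was called over all cells of the rule, where *Cd69* had 0.54 (edgeR adjusted p = 0.316) and *Mir155hg* 0.64 (edgeR adjusted p = 0.241). *Cd83*, the most abundant gene of this list, had a log2 fold change of 0.39 ± 0.11 SE with an edgeR adjusted p = 0.116.

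Among 22 tested genes of adhesion and T cell contact, 1 was called without Xist-high cells and the median was 0.06, against -0.03 with 0 called over all cells of the rule. *Pdcd1lg2*, which encodes the PD-1 ligand PD-L2, was at 8.10, 9.29 and 8.32 CPM against 20.6, 17.4 and 21.3 CPM (log2 fold change 1.24 ± 0.19 SE, edgeR adjusted p = 0.00529). It was not called over all cells of the rule, at 0.93 (edgeR adjusted p = 0.0974). The gene lies 4208 kb from *Dock8* on chromosome 19 (chr19:29410919-29471161, GRCm38, with *Dock8* at chr19:24999534-25202432). It was the 1 gene called among 57 tested genes within 10 Mb of *Dock8*, whose median log2 fold change was 0.02, and -0.03 over all cells of the rule. Of 12 genes of the IL-4 and IL-21 response, *Fcer2a* was the 1 called, and the median was 0.18, against 0.05 with 0 called over all cells of the rule.

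Of the genes outside the lists, several rose after the Xist-high cells were left out. *Abca1*, a cholesterol exporter, was at 15.8, 17.1 and 9.82 CPM against 40.3, 44.2 and 29.5 CPM (log2 fold change 1.31, SE 0.22), and *Abcg1*, which exports cholesterol to mature lipoprotein particles, had a log2 fold change of 0.63 (SE 0.14). *Cpd*, a carboxypeptidase, was at 4.59, 3.88 and 2.66 CPM against 13.4, 16.1 and 12.2 CPM (log2 fold change 1.83, SE 0.29). *Ppfibp2* had a log2 fold change of 1.496 (SE 0.26), *Exoc6b*, of the exocyst, of 1.13 (SE 0.24) and *Rasgef1b* of 1.09 (SE 0.21). Adjusted p-values of these 6 lay between 0.00529 and 0.0393 in edgeR, and the groups did not overlap for any of them. Except for *Abcg1*, absence of overlap was part of how these genes were picked. None of the 6 was called over all cells of the rule, where their log2 fold changes lay between 0.38 for *Abcg1* and 1.39 for *Cpd*. *Slfn5*, the 1 call among 19 tested interferon response genes, was at 25.8, 22.4 and 22.6 CPM against 39.4, 38.9 and 49.4 CPM (log2 fold change 0.91 ± 0.14 SE, edgeR adjusted p = 0.00529), but at -0.04 (edgeR adjusted p = 0.956) with the *Xist* cut in both groups. The median of that list was 0.24, against 0.02 with 0 called over all cells of the rule and -0.04 with the cut in both groups.

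Genes of DNA replication leaned downward once the Xist-high cells were left out. Of 22 listed genes, 21 were tested, 7 were called lower and 0 higher, 20 had a negative sign, and the median log2 fold change was -0.54. *Mcm2*, *Mcm4* and *Mcm5*, subunits of the replicative helicase, had log2 fold changes of -0.69, -0.70 and -0.64. *Uhrf1*, which maintains DNA methylation, was at 77.2, 66.0 and 85.2 CPM against 43.9, 52.3 and 48.5 CPM (log2 fold change -0.66 ± 0.13 SE, edgeR adjusted p = 0.0281). *Pclaf*, a PCNA-binding factor, *Hells*, a chromatin remodeller, and *Lig1*, the ligase that joins Okazaki fragments, had log2 fold changes of -0.63, -0.61 and -0.74, with overlap between the groups for *Lig1*, where DOCK8-deficient recipient 2 was at 125 CPM and WT recipient 2 at 122 CPM. Over all cells of the rule, the median of the same list was 0.01, with 0 called and 0 at an unadjusted p under 0.05. It was -0.42 with 3 called among DOCK8-deficient cells with a Y-linked UMI, and -0.13 with 1 called when the *Xist* cut was applied in both groups.

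The share of cells in replication was compared as well. Thinned to 2000 UMIs, 27.4%, 28.8% and 35.8% of WT cells and 32.4%, 31.7% and 25.8% of DOCK8-deficient cells had at least 3 UMIs of replication genes, and the groups overlapped (two-sided exact permutation test, p = 0.9). Without Xist-high cells the DOCK8-deficient shares were 25.4%, 26.2% and 20.3%, below every WT recipient, with p = 0.1 in the same exact test, the smallest that 3 against 3 recipients allow. These can be set beside the 23.0% of WT cells under the *Xist* cut. Without thinning the values were 64.1% in WT and 67.4% in DOCK8-deficient recipients, and 65.6% without Xist-high cells. In thinning, 34, 87 and 17 WT cells and 5, 4 and 7 DOCK8-deficient cells with too few UMIs were left out.

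Some genes outside the replication list were also called lower after this step. *Cenpm*, a centromere protein, was at 46.3, 41.9 and 52.3 CPM against 24.2, 25.5 and 19.5 CPM (log2 fold change -1.08 ± 0.16 SE, edgeR adjusted p = 0.00529), and it was also called with the *Xist* cut in both groups, at -0.80, but not over all cells of the rule, at -0.29. *Chaf1b*, of the chromatin assembly factor that deposits histones on new DNA, had a log2 fold change of -0.89, *Hist1h1b*, a linker histone, of -0.74, and *Tipin*, a replication fork protein, of -0.67. These 3 had -0.24, -0.01 and -0.03 over all cells of the rule, and were called under 1, 2 and 1 of the 5 selections. For *Hist1h1b* the value with the cut in both groups was 0.27, of the opposite sign, and *H2afz*, *Stmn1* and *Pclaf*, called lower with Xist-high cells left out of the DOCK8-deficient recipients, had values of 0.00, 0.05 and 0.03 with the cut in both. The 20 mitosis genes had a median of 0.06 over all cells of the rule with 13 positive and 0 called. Without Xist-high cells they gave 0 calls, all with a negative sign and a median of -0.32, with 9 lower at an unadjusted p under 0.05. With the cut in both groups their median was 0.44, and 6 were called higher, among them *Top2a* (0.79) and *Mki67* (0.59). The direction of the mitosis genes therefore depended on which cells were kept.

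**Figure D4:**
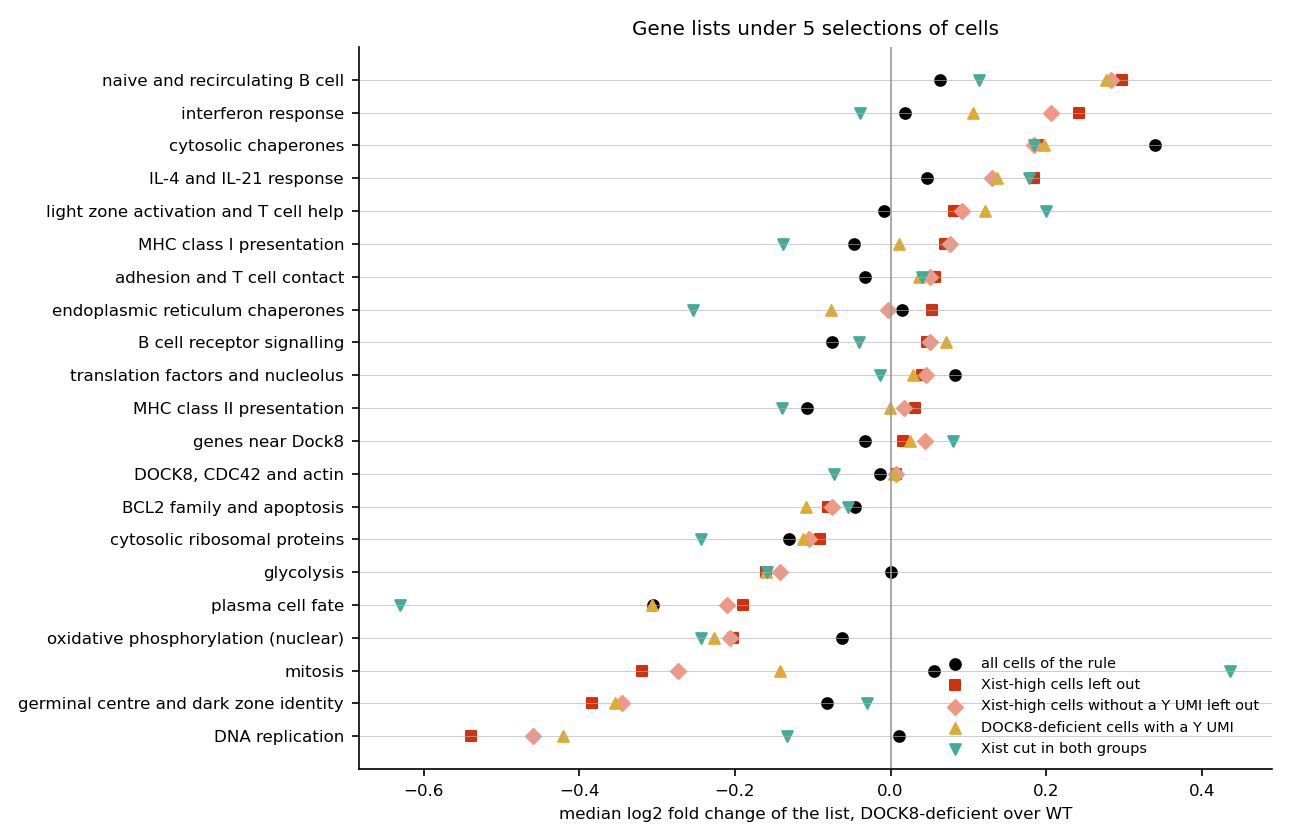
Median log2 fold change of 21 gene lists, DOCK8-deficient over WT, under 5 selections of cells (symbols). DNA replication lies at 0.01 over all cells of the rule, at -0.54 without Xist-high cells and at -0.13 with the cut in both groups, whereas cytosolic chaperones lie between 0.18 and 0.34 under all 5.

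Replication genes are known targets of E2F factors, so promoters were searched for the E2F-type motifs TTTCCCGC and TTTGGCGC on both strands within 250 bases before the start site. Of 20 genes of the replication list with a promoter in RefSeq, 6 held a match (30.0%), against 2.82% of 8074 promoters of tested genes and 1.35% of all 27025 promoters. The windows of *Mcm5* and *Hells* are shown because they were the 2 called replication genes with a match, on the plus strand of GRCm38.p6, with the motif in capitals:
Mcm5, chr8:75109350-75109377: aagaactttcGCGCCAAAacgtccagcc
Hells, chr19:38930918-38930945: accaccgggtTTTCCCGCgaaagagaag
The *Mcm5* window holds the second motif as its reverse complement GCGCCAAA, centred 145 bases before the RefSeq start, and the *Hells* window holds the first, 58 bases before it. Among promoters of genes called lower, 3 of 23 held a match, and among those called higher, 1 of 27. GENCODE M21 places the start of *Hells* at chr19:38930915, ahead of its window, which by that annotation lies inside the gene. A match describes these letters and does not show binding.

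Genes of germinal centre and dark zone identity leaned the same way as the replication genes once Xist-high cells were left out. The limit of that cut, given above, holds for them too. Of 18 listed genes 17 were tested, 2 were called lower, and the median log2 fold change was -0.38 with 15 negative. *Mef2b*, a transcription factor of germinal centre B cells, was at 91.3, 103 and 101 CPM against 75.2, 63.0 and 60.3 CPM (log2 fold change -0.59 ± 0.11 SE, edgeR adjusted p = 0.0251). The lowest WT recipient lay above the highest DOCK8-deficient recipient. The list's median was -0.08 over all cells of the rule and -0.03 with the *Xist* cut in both groups, and *Mef2b* was not called there. Germinal centre markers summed to 570, 498 and 421 CPM without Xist-high cells, below the 3 WT values given above, of which the lowest was 572 CPM.

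*Thy1*, a T cell surface protein, and *Gstt1*, a glutathione transferase, had the largest falls. *Thy1* was at 4.73, 3.72 and 3.50 CPM in WT and at 0, 0 and 0.453 CPM in DOCK8-deficient recipients without Xist-high cells, so its fold change rests on almost no counts. T cell markers moved with it: their sum was 22.6, 39.4 and 35.1 CPM in WT and 18.6, 21.5 and 11.4 CPM in the DOCK8-deficient recipients, without overlap, and 2 of the 8 markers were at 0 in the latter. With cells of at least 2 T cell UMIs left out of both groups, 101 genes were called. *Ada*, adenosine deaminase, was at 77.3, 75.5 and 93.8 CPM against 35.8, 48.3 and 51.7 CPM (log2 fold change -0.83 ± 0.14 SE, edgeR adjusted p = 0.0118), and *Rgs10*, which limits G protein signalling, at 38.9, 35.7 and 44.2 CPM against 23.3, 28.1 and 22.7 CPM (log2 fold change -0.72, adjusted p = 0.0396). Both separated the groups, as did *Ncdn* (-0.99) and *A530040E14Rik* (-1.05), but absence of overlap was part of how these genes were picked. *Gstt1* was at 6.38, 5.35 and 10.2 CPM against 0.896, 1.34 and 0.907 CPM (log2 fold change -2.84 ± 0.62 SE, edgeR adjusted p = 0.0393). Over all cells of the rule *Ada* (-0.18), *Rgs10* (-0.35), *Ncdn* (-0.82), *A530040E14Rik* (-0.80), *Gstt1* (-1.73) and *Thy1* (-0.58) were not called. With the *Xist* cut in both groups *A530040E14Rik* was called (-1.15). *Ada* (-0.44), *Rgs10* (-0.66) and *Ncdn* (-1.02) were not called there, and *Gstt1* and *Thy1* were not tested.

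Cytosolic chaperones gave the highest list median over all cells of the rule. Of 24 listed genes 22 were tested, with a median log2 fold change of 0.34 and 15 higher at an unadjusted p under 0.05, where 3.79% of all genes were. None of them was called by edgeR. *Hsp90aa1* was at 539, 504 and 625 CPM against 671, 839 and 765 CPM (log2 fold change 0.45 ± 0.10 SE, edgeR adjusted p = 0.139), and *Hspa8* at 709, 658 and 858 CPM against 856, 1154 and 976 CPM (log2 fold change 0.42 ± 0.11 SE, edgeR adjusted p = 0.233). WT recipient 3 was the highest of its group for both and overlapped with DOCK8-deficient recipient 1 for *Hspa8*. Without WT recipient 3, 9 chaperone genes were called higher and the median was 0.40. The count over all genes also rose in that fit, as given above, so those calls are to be read beside it. With the *Xist* cut in both groups 20 chaperone genes were tested, 2 were called higher and 1 lower, and the median was 0.18. *St13*, a cofactor of the HSP70 chaperone, was at 130, 138 and 145 CPM against 175, 189 and 193 CPM (log2 fold change 0.44, edgeR adjusted p = 0.0941), and it was called without Xist-high cells (log2 fold change 0.46 ± 0.09 SE, edgeR adjusted p = 0.0281), where the median of the list was 0.19.

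Several lists showed no called gene either over all cells of the rule or without Xist-high cells. The 12 MHC class II genes had medians of -0.11 and 0.03 in these selections, with 3 and then 10 positive, the 10 MHC class I genes of -0.05 and 0.07, 21 B cell receptor genes of -0.08 and 0.05, and 26 genes of DOCK8, CDC42 and actin of -0.01 and 0.01. *Cdc42* itself was at 604, 594 and 586 CPM against 589, 632 and 637 CPM, and *Actb* had a log2 fold change of -0.02. The 20 tested genes of the BCL2 family and apoptosis had medians of -0.05 and -0.08, and over all cells of the rule *Mcl1* a log2 fold change of -0.04. ER chaperones stood at 0.01 and 0.05, translation factors and nucleolar genes at 0.08 and 0.04, and glycolysis at 0.00 and -0.16. With the *Xist* cut in both groups, ER chaperones were at -0.25 with 14 of 16 negative and 2 called lower, B cell receptor genes at -0.04 with 1 called higher and 2 lower, and 1 MHC class II gene and 1 translation or nucleolar gene were called lower. Of 71 oxidative phosphorylation genes *Cox6a2* was the 1 called, while the list's median was -0.06, and -0.20 with 67 negative without Xist-high cells. With the *Xist* cut in both groups 69 of them were tested, 1 was called higher and 3 lower, and the median was -0.24.

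Ribosomal protein genes and plasma cell genes leaned downward, with calls that depended on the selection of cells. Of 76 tested ribosomal protein genes 69 had a negative sign, 0 were called over all cells of the rule, and the median log2 fold change was -0.13 with 25 lower at an unadjusted p under 0.05. *Rps29* was at -0.20 (edgeR adjusted p = 0.450). The median was -0.09 with 0 called without Xist-high cells, and -0.24 with 10 called lower when the *Xist* cut was applied in both groups. All 14 tested genes of plasma cell fate had a negative sign, with 0 called, 6 lower at an unadjusted p under 0.05 and a median of -0.30, although cells with high *Jchain* had been left out. The median was -0.19 with 0 called without Xist-high cells, and -0.31 with 1 called lower among cells with a Y-linked UMI. With the cut in both groups it was -0.63, against 0.00 over all genes, with 6 of 11 called lower. *Xbp1*, the transcription factor of the secretory programme, was at 166, 169 and 176 CPM against 139, 140 and 121 CPM (log2 fold change -0.37 ± 0.09 SE, edgeR adjusted p = 0.174). Plasma cell markers summed to 2204, 2358 and 2157 CPM in WT and 2063, 2069 and 2036 CPM in DOCK8-deficient recipients, without overlap. That sum includes *Jchain*, the gene by which the rule left cells out, so it is not separate support for a lean. *Igkc*, the kappa light chain, had a log2 fold change of -0.36 ± 0.07 SE with an edgeR adjusted p = 0.0974.

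The cells that the rule left out for their *Jchain* level were also compared. Cells with *Jchain* at or over 50 CP10K made up 22.4% ± 3.87 (SD, n = 3) of assigned cells in the WT recipients and 8.79% ± 4.66 (SD, n = 3) in the DOCK8-deficient ones (two-sided exact permutation test, p = 0.1, the smallest possible). The groups did not overlap, and without Xist-high cells the second share was 9.62%. Cell numbers after sorting and hashtag assignment do not give numbers per spleen.

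The share of *Ighd*-positive cells was compared at equal depth. Thinned to 2000 UMIs, an *Ighd* UMI was found in 47.3%, 45.7% and 34.3% of WT cells and in 56.5%, 47.5% and 54.7% of DOCK8-deficient cells (two-sided exact permutation test, p = 0.1). The groups lay next to each other without overlap at this hashtag rule, but overlapped at 2-fold and 5-fold hashtag rules (exact p = 0.2 for each) and with HTODemux (exact p = 0.6). Without thinning, at 69.9% and 77.5%, the groups overlapped (p = 0.2, exact test). Without Xist-high cells the thinned shares were 62.7%, 52.4% and 59.1%. In bystander cells they were 19.3% and 20.5% in the WT and DOCK8-deficient groups. *Ighd* UMIs also occurred in barcodes that should lack them. Among assigned CD45.2+ barcodes with at least 5 T cell UMIs, 85 at a median of 4125 UMIs, 18 of the 75 that could be thinned had one. Among 44 such CD45.1+ barcodes, at a median of 3078.5 UMIs, 0 of 41 had one. No doublet caller was run, and free RNA cannot be told apart here from doublets of a T and a B cell.

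Within *Ighd*-positive cells, 7 of 9952 genes were called (0.0703%), of which *Gm43305*, *AA467197*, *E330020D12Rik*, *Mgst2* and *Pcp4* were also called over all cells. The other 2 were *St13*, at 123, 136 and 137 CPM against 182, 193 and 186 CPM (log2 fold change 0.50 ± 0.09 SE, edgeR adjusted p = 0.0427), and *Mrpl52*, a protein of the mitochondrial ribosome, at 273, 263 and 277 CPM against 195, 198 and 198 CPM (log2 fold change -0.46 ± 0.08 SE, edgeR adjusted p = 0.0484). *Mrpl52* starts 129 kb from the end of *Gm43305* on chromosome 14. The count was 22 without WT recipient 2, 98 without WT recipient 3, and 4, 3 and 1 without DOCK8-deficient recipient 1, 2 or 3.

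Without Xist-high cells, 28 of 9911 genes were called in *Ighd*-positive cells (0.283%), 19 higher (0.192%) and 9 lower (0.0908%). The count was 44 without WT recipient 1 and 89 without WT recipient 3, and 3, 3 and 0 without DOCK8-deficient recipient 1, 2 or 3, so each of the last is needed for most calls. Of the 68 genes called in all cells, 27 were called here and all 68 had the same sign. *Zfp318* was at 96.4, 91.3 and 59.0 CPM against 182, 131 and 155 CPM (log2 fold change 0.93 ± 0.16 SE, edgeR adjusted p = 0.0138). *Pdcd1lg2*, *Slfn5*, *Cd69*, *Mir155hg* and *Fcer2a* also passed in these cells, and *Csrp2*, a LIM domain protein, was called lower (log2 fold change -0.90 ± 0.17 SE, edgeR adjusted p = 0.0280). The replication list had a median of -0.54 with 17 of 21 lower at an unadjusted p under 0.05, against 6.08% of all genes, and 0 called.

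In *Ighd*-zero cells, which hold 42, 39 and 90 cells of the DOCK8-deficient recipients, 1 of 8890 genes was called (0.0112%). *Gm43305* was at 90.4, 95.8 and 89.9 CPM against 261, 238 and 142 CPM (log2 fold change 1.12 ± 0.16 SE, edgeR adjusted p = 0.00493). It was not called without WT recipient 1 or DOCK8-deficient recipient 2, where the count was 0, and 11 genes were called without DOCK8-deficient recipient 1. Without Xist-high cells, *Gm43305* and *Vim* were called out of 8883 (0.0225%). *Vim*, the intermediate filament vimentin, was at 303, 285 and 242 CPM against 443, 574 and 504 CPM (log2 fold change 0.87 ± 0.13 SE, edgeR adjusted p = 0.00336). The count of 2 became 1 without WT recipient 3, 5 without DOCK8-deficient recipient 1 and 0 without recipient 3. Of the 68 genes called in all cells, 64 were tested here, 1 was called and 60 had the same sign.

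Whether the group difference was unequal in *Ighd*-positive and *Ighd*-zero cells was tested with an interaction term. Of 9981 genes 1 was called (0.01%), *Ptcra*, the pre-T cell receptor alpha chain of immature T cells, with a difference of -4.19 on the log2 scale (edgeR adjusted p = 0.0111). It stood at 65.5 CPM in *Ighd*-zero cells of DOCK8-deficient recipient 3 and between 0 and 9.40 CPM in all other sums, so the call rests on 1 recipient. The count was 0 without WT recipient 1, 4 and 3 without WT recipient 2 or 3 and 5 without DOCK8-deficient recipient 1. Without Xist-high cells edgeR and DESeq2 called 0 genes, with 572 of 10023 at an unadjusted p below the threshold in edgeR, and edgeR called 1 without WT recipient 3 and 7 without DOCK8-deficient recipient 1. An effect called in 1 of the 2 compartments is thus not shown to differ between them.

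The bystander CD45.1+ cells of the same recipients show how far recipients differ without a difference in *Dock8*. By the same rule 3303 of 5232 CD45.1+ barcodes were kept. Of 8923 genes 1 was called between the groups (0.0112%), *Ly6c2*, at 11.7, 10.6 and 18.8 CPM against 1.78, 1.65 and 1.97 CPM (log2 fold change -2.97 ± 0.35 SE, edgeR adjusted p = 0.00565), and 0 were called without WT recipient 3 or without DOCK8-deficient recipient 1 or 2. Of the 68 genes called in CD45.2+ cells, 66 were tested in bystander cells, 0 were called, 4 had an unadjusted p under 0.05, and 33 had the same and 33 the opposite sign.

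The CD45.2+ difference was then tested against that of the bystander cells within recipients. Over all cells of the rule neither edgeR nor DESeq2 called any gene (0 of 9619 in edgeR), although 485 had an unadjusted p below 0.05. The count was 7 without WT recipient 3 and 1 without DOCK8-deficient recipient 1. Without Xist-high cells 3 of 9504 genes were called (0.0316%). *Rasgef1b*, an exchange factor for RAS-like GTPases, was at 11.2, 10.6 and 14.5 CPM in WT and 22.2, 17.2 and 31.3 CPM in DOCK8-deficient CD45.2+ cells, and at 10.8, 9.28 and 15.2 CPM against 7.21, 3.79 and 7.70 CPM in bystander cells, a difference of 1.89 between the log2 fold changes (SE 0.29, edgeR adjusted p = 0.0244). For this gene the groups moved apart in opposite directions in the 2 libraries. *Zfp318* was nearly constant in bystander cells, between 32.0 and 41.9 CPM, and its difference was 1.29 (SE 0.20, edgeR adjusted p = 0.0244). *Cenpm* lay between 34.7 and 58.1 CPM in bystander cells, and its difference was -1.20 (SE 0.20, edgeR adjusted p = 0.0400). DESeq2 called 1 gene in this comparison, and edgeR called 0 without any 1 of the DOCK8-deficient recipients, 54 without WT recipient 1 and 15 without WT recipient 3.

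**Figure D5:**
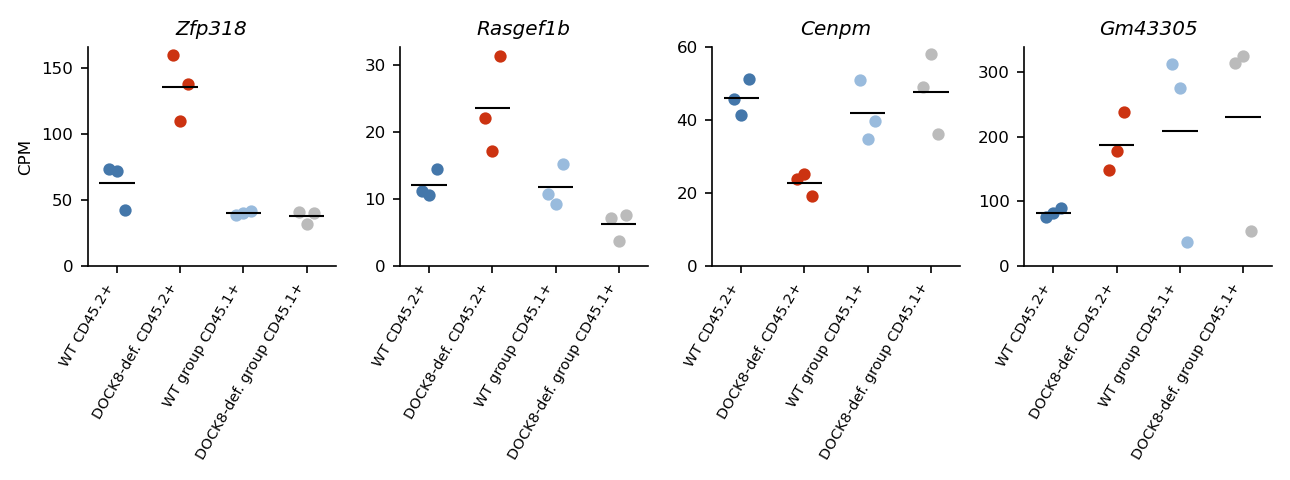
CPM of *Zfp318*, *Rasgef1b*, *Cenpm* and *Gm43305* by recipient (points) with the mean of 3 (lines), in CD45.2+ cells without Xist-high cells and in bystander CD45.1+ cells of the same recipients. *Zfp318* reaches 160, 110 and 137 CPM in DOCK8-deficient CD45.2+ cells and stays at or under 41.9 CPM in bystander cells, while *Gm43305* varies between recipients in the bystander cells of both groups.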

How the data were processed

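Splenic B cells of 6 recipients were hashtag-labelled and sorted by CD45 allotype on day 8, which gave 2 mRNA and 2 hashtag libraries. The authors aligned reads to mm10 with Cell Ranger 5.0.1, and the deposited counts are UMIs per gene or hashtag and barcode, without normalization. The 2 mRNA libraries share 38 barcodes. Groups come from the deposited hashtag table.

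Autosomal counts were summed per recipient and tested with edgeR 4.0.16 (R 4.3.3, quasi-likelihood, TMM, filterByExpr, Benjamini-Hochberg adjusted p of 0.05). DESeq2 1.42.0 was the second tool. CPM use TMM library sizes over autosomal genes, except for sums over markers, *Xist*, Y-linked genes and the *Bcl2* values by cell set. Shares of cells were compared by exact permutation tests (scipy 1.17.1). Total counts per recipient ranged from 1182372 to 18839504 UMIs, and median UMIs per cell from 5860.5 to 7105.5. No doublet caller was run. On simulated counts over 10475 genes, 70.1% of 67 planted 2-fold changes were recovered in all cells. Changes of 1.5-fold and 4-fold were planted in the same counts. Recovery with as few changed genes as were called in the data was not tested.

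Named genes are checks of the labels, the called genes with the largest changes without overlap (up to 12 each way over all cells, 6 in each *Ighd* set), called list members and the 3 most abundant members of a list, and genes called in interaction fits. *9930111J21Rik2*, *Abcg1*, *Cdc42*, *Filip1l*, *H2afz*, *Ighd*, *Ly6c2*, *Serpinb1a*, *Stmn1*, *Tipin* and *Trib2* lie outside this rule and were named after their values were seen. Results for a few genes are not reported here. Members and lists were chosen with earlier results of these data known. Coordinates are from GENCODE M21, promoters from RefSeq on GRCm38.p6. Alternatives covered normalization, filters, tools, hashtag rules, *Jchain* cuts, depth, sex-linked transcripts, T cells, immunoglobulin genes and recipients left out.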

Additional observations from a re-analysis of the deposited data

Results flagged for a closer look

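The difference of *Rasgef1b* (1.89), *Zfp318* (1.29) and *Cenpm* (-1.20) between the log2 fold changes of CD45.2+ and of bystander CD45.1+ cells passed the interaction test of edgeR once Xist-high cells were left out, with 9504 genes tested. The difference of *Ptcra* between *Ighd*-positive and *Ighd*-zero cells (-4.19) passed the same kind of test over all cells of the rule and rests on DOCK8-deficient recipient 3.

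Of 7785 non-plasma CD45.2+ cells without hashtag counts, which entered no comparison, 23.0% had a Y-linked UMI, against 6.92% of cells in WT recipients and 58.5% in DOCK8-deficient ones, and 81.5% had an *Xist* UMI.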

How the results depend on the processing

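Over all genes in CD45.2+ cells, WT and DOCK8-deficient recipients with the same number in the hashtag table had correlations of -0.04, -0.09 and -0.06. Sums over few cells are noisy, so these values cannot exclude a pairing by number. In bystander cells, however, *Gm43305* was lowest in recipient 3 of both groups. A replicate block by those numbers, added after the data were seen, kept 7 calls over all cells and gave 129 without Xist-high cells, 72 in *Ighd*-positive and 4 in *Ighd*-zero cells without them. Over all cells of the rule the count of 7 became 127 without a filter on low counts, 18 with DESeq2, 11 with HTODemux, 91 without the *Jchain* filter, 4 without T cells, 68 without Xist-high cells and, leaving out 1 recipient, 2 to 50. The planned sex-linked alternative, which kept DOCK8-deficient cells without a Y-linked UMI and WT cells without an *Xist* UMI, runs against the observed levels, kept 41, 45 and 29 WT cells and gave 551 calls, 198 in *Ighd*-positive and 88 in *Ighd*-zero cells.

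In *Ighd*-positive cells the count of 7 became 14 with DESeq2 size factors, 109 without the filter, 19 with DESeq2, 15 with HTODemux, 133 without the *Jchain* filter, 21 with cells of at least 2000 UMIs, 14 without T cells, 28 without Xist-high cells and 1 to 98 with 1 recipient left out. In *Ighd*-zero cells the count of 1 became 24 without the filter, 2 with DESeq2, 34 with HTODemux, 2 without Xist-high cells and 0 to 11 with 1 recipient left out. In bystander cells it became 18 without the filter and 0 to 1 with 1 recipient left out. The comparison of CD45.2+ with CD45.1+ effects went from 0 to 27 without the filter, 3 without Xist-high cells and 0 to 7 with 1 recipient left out, and that of *Ighd*-positive with *Ighd*-zero cells from 1 to 14, 0 and 0 to 5, and to 0 with DESeq2.

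Without Xist-high cells the count of 68 became 328 without the filter, 103 at a cut of 1 *Xist* UMI, 14 at 8 CP10K, 42 in cells with a Y-linked UMI, 125 with the cut in both groups and 1 to 116 with 1 recipient left out. In *Ighd*-positive cells 28 became 211 without the filter, 47 at a cut of 3 UMIs, 10 at 8 CP10K, 60 with the cut in both groups, 52 without T cells and 0 to 89. In *Ighd*-zero cells 2 became 24 without the filter, 6 with DESeq2, 0 with the cut in both groups and 0 to 5. The CD45.2+ against CD45.1+ comparison went from 3 to 137 without the filter, 1 with DESeq2 and 0 to 54, and the *Ighd* comparison from 0 to 3 with DESeq2 size factors, 8 without the filter and 0 to 7. The causes were not tested.

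The log2 fold change of *Bcl2* lay near 0 and changed sign: from -0.007 over all cells to 0.00188 at a 5-fold hashtag rule, 0.00161 without T cells, 0.034 with *Jchain* under 20 CP10K, 0.015 with the block and 0.30 without Xist-high cells, and it ranged from -0.14 to 0.082 with 1 recipient left out. In *Ighd*-positive cells it went from 0.053 to -0.19 with HTODemux, -0.35 without the *Jchain* filter and -0.63 under the planned sex-linked alternative, and from -0.073 to 0.15 with 1 recipient left out. In *Ighd*-zero cells without Xist-high cells it was 0.25. With the *Xist* cut in both groups *H2afz* (0.0044), *Stmn1* (0.051), *Pclaf* (0.033), *Hist1h1b* (0.27), *Serpinb1a* (-0.030) and *Slfn5* (-0.039, and -0.19 in *Ighd*-positive cells) changed sign. Depth limits the DOCK8-deficient recipients most, and recovery of 2-fold changes in the same kind of simulation was 65.7% in *Ighd*-positive and 52.2% in *Ighd*-zero cells. Genes below the low-count filter entered the counts of calls given without that filter, and they could enter the sums over markers.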
